A study of Mus musculus with 8 samples.

Results

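The genes described here are 20 genes of the p53 pathway, the tumour suppressor gene Trp53 itself and 19 genes known as its targets, and 12 genes of the DNA damage checkpoints and of DNA repair. They were chosen by symbol and make up 32 of the 37991 genes in the deposited table. RNA was sequenced from 4 libraries of single colored and 4 libraries of double colored heart cells, labelled as isolated adult cardiomyocytes. All 8 came from alpha-MHC MERCREMER MADM mice whose hearts were injected with an adenovirus encoding 4 cell cycle genes, and the cells were isolated 2 weeks later, so the double colored cells had received the injection too. In these mice the alpha myosin heavy chain promoter, active in cardiomyocytes, drives a Cre recombinase that tamoxifen switches on. Recombination in the MADM reporter (mosaic analysis with double markers) can leave the daughters of a dividing cell with 1 color each. Per the labels, single colored cells performed a cell cycle and double colored cells did not. The age of the mice and whether libraries came from separate animals are not stated in the sources used here. The p-values therefore reflect how these 8 libraries vary, part of which may be technical.

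The p53 protein is a transcription factor that cells make and destroy continuously, with its target Mdm2 tagging it for destruction. After DNA damage, the kinases Atm and Atr and their partners Chek2 and Chek1 stabilize the protein, and p53 then switches on genes that halt the cell cycle, help repair or trigger cell death. Much of this control acts on the protein, which RNA counts do not measure. Adult cardiomyocytes rarely divide, and the DNA damage response is known as one of the brakes on their cell cycle after birth.

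The promoters of the p53 pathway genes are shown because the p53 protein binds DNA through a short decamer, of which a full site has a pair. Promoter windows of 300 bases, from 250 before to 50 after a gene's start, were found for 14 of the 20 p53 pathway genes (18 windows) and 8 of the 12 checkpoint and repair genes (8 windows), in RefSeq's GRCm38.p6 build. The p53 decamer, searched on both strands, was present in 8 of the 18 windows of the p53 pathway genes. These belonged to 7 genes, Aen, Bax, Ccng1, Gadd45a, Mdm2, Sesn1 and Trp53. The decamer was in 0 of the 8 windows of the checkpoint and repair genes and in 8.36% of all 32851 windows. Against that share, 8 windows are too few for 0 matches to be read as a difference. The p53 pathway genes were listed as known targets, so their share is no test of the list. Trp53 and Ccng1, whose libraries separated by group in opposite directions, both held the decamer, as did Mdm2. Trp53 separated upward in single colored cells, as did 5.37% of all genes, and Ccng1 downward, as did 3.76%. Neither gene passed the adjusted test, and a link between separation and decamer was not tested. Their windows are given on the gene's strand with the decamer in capitals, and each lies on another build than the mm9 coordinates of the counts. The Trp53 window is chr11:69580109-69580408 on the plus strand, the Ccng1 window chr11:40755237-40755536 on the minus strand and the Mdm2 window chr10:117710709-117711008 on the minus strand.
Trp53: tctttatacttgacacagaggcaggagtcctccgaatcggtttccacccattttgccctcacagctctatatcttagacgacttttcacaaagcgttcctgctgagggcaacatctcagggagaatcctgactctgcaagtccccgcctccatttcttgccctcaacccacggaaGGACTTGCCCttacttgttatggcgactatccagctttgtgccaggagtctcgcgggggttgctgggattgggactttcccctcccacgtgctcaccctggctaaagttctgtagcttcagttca
Ccng1: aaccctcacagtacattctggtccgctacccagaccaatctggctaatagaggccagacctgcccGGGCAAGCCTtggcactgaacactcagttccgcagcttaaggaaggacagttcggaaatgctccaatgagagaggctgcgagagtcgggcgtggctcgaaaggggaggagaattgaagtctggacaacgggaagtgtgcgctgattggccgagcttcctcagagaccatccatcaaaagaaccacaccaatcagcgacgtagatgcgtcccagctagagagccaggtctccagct
Mdm2: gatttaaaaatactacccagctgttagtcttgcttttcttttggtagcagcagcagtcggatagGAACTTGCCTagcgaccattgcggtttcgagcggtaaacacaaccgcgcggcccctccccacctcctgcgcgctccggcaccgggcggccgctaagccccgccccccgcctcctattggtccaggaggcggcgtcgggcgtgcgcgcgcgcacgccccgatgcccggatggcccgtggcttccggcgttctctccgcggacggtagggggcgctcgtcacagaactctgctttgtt
The decamer began 75 bases before the start of Trp53 (GGACTTGCCC), 185 bases before that of Ccng1 (GGGCAAGCCT) and 186 bases before that of Mdm2 (GAACTTGCCT). The letters TTTCCCGC, one form of the site of the E2F cell cycle factors, were searched on both strands and found in windows of Brca2 and Chek2, in 0 windows of the p53 pathway genes and in 1.07% of all windows. These matches are letters in a window and do not show that a factor binds there.

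The libraries held between 23820700 and 30082278 counted reads. Mitochondrially encoded genes took 77.5% to 85.9% of them in the single colored and 84.2% to 88.3% in the double colored libraries, so that 3750616 to 6112595 nuclear-encoded reads were left in the single colored and 3503353 to 3850391 in the double colored libraries. Of 12466 genes tested, 309 differed between the groups, 289 higher and 20 lower in single colored cells. The 12 cardiomyocyte markers were abundant in every library, with a summed level of 14586 to 26769 CPM (read counts over the scaled library size, by TMM) in the single colored and 23457 to 30897 CPM in the double colored libraries. Markers of other cells were present as well. Of 14 tested lymphocyte markers 10 rose, with a summed level of 29.6 to 67.2 CPM in the single colored and 3.59 to 13.0 CPM in the double colored libraries. Of 20 tested myeloid markers 8 rose and 1 fell, with a summed 304 to 528 CPM in the single colored and 160 to 219 CPM in the double colored libraries. Single colored replicate 1 had the highest sum of both lists and the lowest cardiomyocyte sum.

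**Figure D1:**
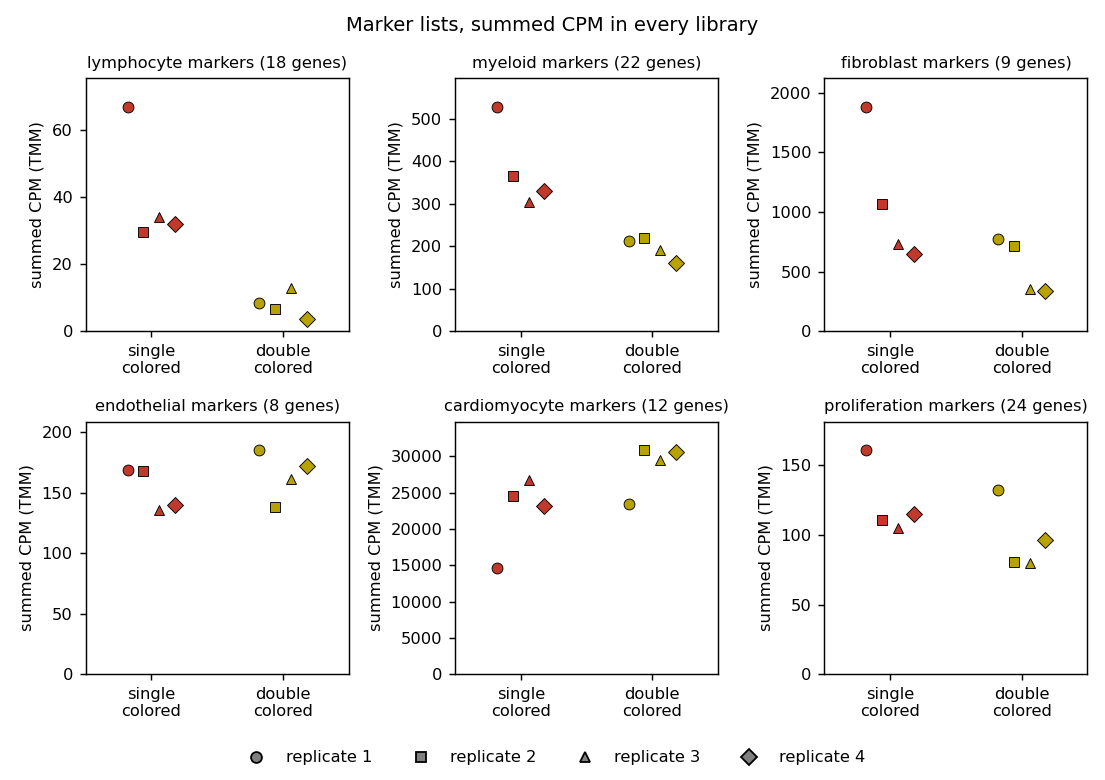
Summed CPM of 6 marker lists (vertical axis, from 0) in each of the 4 single and 4 double colored libraries, with a marker shape for each replicate number. Lymphocyte sums lay at 29.6 to 67.2 CPM in the single colored and at 3.59 to 13.0 CPM in the double colored libraries, with no overlap.

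No p53 pathway, checkpoint or repair gene passed an adjusted p of 0.05 between single and double colored cells in the test without a replicate block. Of the 32 genes 30 had enough reads to be tested, and 0 of them passed (edgeR quasi-likelihood test, Benjamini-Hochberg adjustment over 12466 genes), against 2.48% of all tested genes. At an unadjusted p under 0.05, 2 were higher (Trp53 and Zmat3, against 9.02% of all genes) and 1 was lower (Btg2, against 6.10% of all genes) in single colored cells. DESeq2 called 0 as well, against 4.46% of all genes. With the replicate number as a block 1 gene was called, Btg2, which was lower, as were 2.57% of all genes. With scaling by library totals alone 3 were called higher, Trp53, Zmat3 and Trp53inp1, against 11.1% of all genes. The adjusted p-values ran from 0.201 to 0.987. The 18 tested p53 pathway genes had a median log2 fold change, single over double colored, of 0.16, with 11 above 0 and 7 below, and the 12 checkpoint and repair genes one of 0.00, with 6 above and 6 below. The median over all tested genes was −0.01, with 49.4% above 0. With scaling by library totals alone, which moved the median of all genes to 0.48, the medians of both lists were 0.65 and 0.50. The 95% intervals of the log2 fold changes reached from 0.31 to 1.55 to either side of the estimate, and 22 of the 30 lay wholly between −1 and 1. For these 22 genes a log2 difference of 1 in either direction lay outside the interval, and for the other tested genes it lay inside in at least 1 direction.

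**Figure D2:**
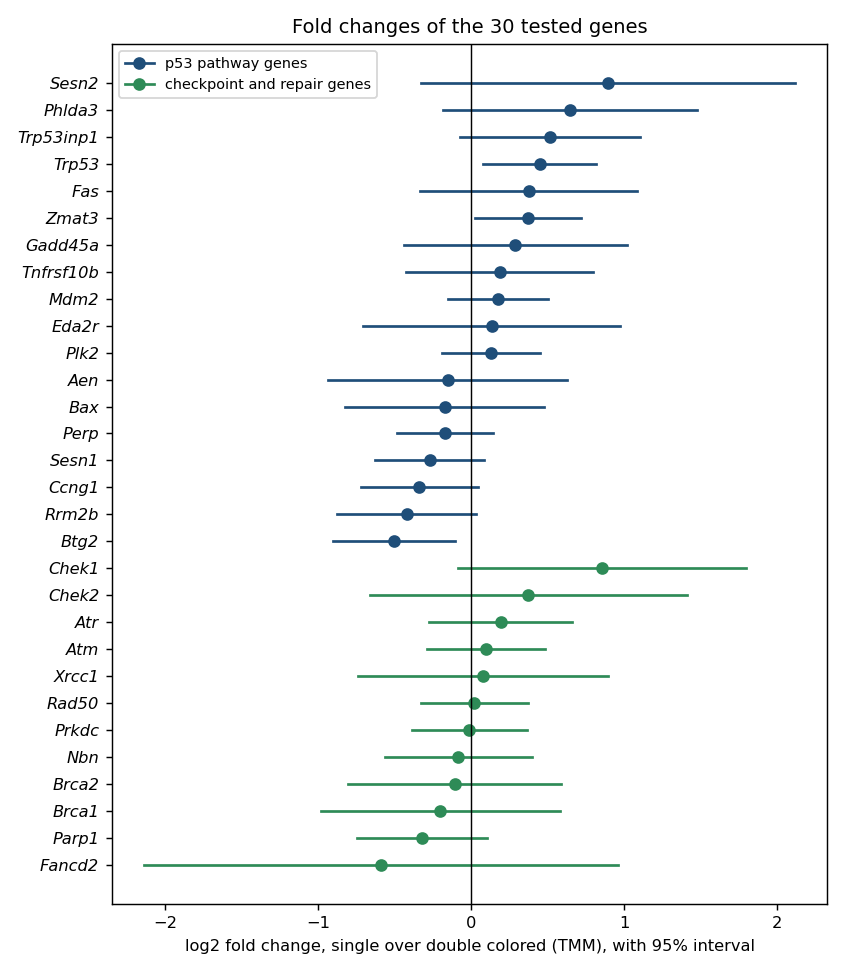
Log2 fold change of single over double colored cells (horizontal axis, TMM scaling) for the 30 tested genes, with lines for the 95% interval. The 18 p53 pathway genes ran from 0.89 for Sesn2 to −0.50 for Btg2, and the 12 checkpoint and repair genes from 0.86 for Chek1 to −0.59 for Fancd2.

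Trp53, the gene of the p53 protein (ENSMUSG00000059552, mm9 chromosome 11, 69393861 to 69405375), was measured at 10.4, 7.43, 8.17 and 9.05 CPM in single colored replicates 1 to 4, and at 7.03, 6.45, 6.31 and 5.93 CPM in double colored replicates 1 to 4. All 4 single colored libraries lay above all 4 double colored ones, which held for 5.37% of all tested genes. The log2 fold change was 0.45 ± 0.17 (SE, 95% interval 0.08 to 0.82, edgeR adjusted p = 0.222). It passed only with scaling by library totals alone (log2 fold change 0.96, adjusted p = 0.0201), and over all 20 alternatives its adjusted p ran from 0.0201 to 0.531. In the authors' deposited table, whose fold changes are double over single colored, Trp53 stood at −0.44 with an FDR of 0.529. Mdm2, the ligase that marks p53 for destruction (chromosome 10, 117125944 to 117147814), had 26.0, 25.1, 21.3 and 32.2 CPM in single colored libraries, against 19.5, 25.9, 24.3 and 22.9 CPM in double colored libraries. These groups overlapped, and the log2 fold change was 0.18 ± 0.15 (95% interval −0.15 to 0.50, edgeR adjusted p = 0.664). It was 0.05 without single colored replicate 4 and 0.10 without double colored replicate 1, but 0.25 without single colored replicate 3.

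Among the genes tied to growth or the cell cycle, Ccng1 and Btg2 had fold changes below 0, and Plk2 and Gadd45a above 0. Ccng1, which encodes cyclin G1 and is a classic p53 target, was the most abundant of the 32 genes by length, at 69.2 ± 14.2 CPM per kb of exon in the single colored and 87.4 ± 4.94 CPM per kb in the double colored cells (SD, n = 4 each). Its libraries had 170, 265, 254 and 282 CPM in single colored replicates 1 to 4, against 290, 330, 298 and 310 CPM in double colored replicates 1 to 4. All single colored libraries lay below all double colored ones, the nearest being 282 and 290 CPM, as did those of 3.76% of all genes. The log2 fold change was −0.34 ± 0.18 (edgeR adjusted p = 0.405). It was −0.21 without single colored replicate 1, and 0.12 with scaling by library totals, under which the median gene stood at 0.48. Btg2, an antiproliferative gene of the BTG/TOB family (chromosome 1, 135971747 to 135975697), had 27.0, 48.2, 40.1 and 42.0 CPM in single colored libraries, against 41.0, 55.5, 62.3 and 64.4 CPM in double colored libraries. The groups overlapped, while within each of the 4 numbered pairs the single colored library was lower, as held for 13.7% of all genes. The log2 fold change of Btg2 was −0.50 ± 0.19 (edgeR adjusted p = 0.201). With the replicate number as a block it was called lower (log2 fold change −0.51, edgeR adjusted p = 0.0134), the 1 gene of the 32 called in that fit, which called 2.57% of all genes lower. Over all alternatives the adjusted p of Btg2 ran from 0.0134 to 0.857. Plk2, a polo-like kinase, lay at 17.2 to 24.3 CPM in single colored libraries, against 16.1 to 20.6 CPM in double colored libraries. Its log2 fold change was 0.13 ± 0.15 (edgeR adjusted p = 0.762). Gadd45a, a growth arrest gene, averaged 2.60 ± 0.867 CPM in single colored cells, against 2.12 ± 0.993 CPM in double colored cells. Its log2 fold change was 0.29 ± 0.34 (edgeR adjusted p = 0.769). E230016M11Rik, on the opposite strand, overlaps 19.1% of the exon length of Gadd45a. Reads within the overlap cannot be assigned to either gene, since whether the counting used strand is not stated in the sources used here.

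Zmat3 and Trp53inp1, genes tied to the p53 response itself, had fold changes above 0. Zmat3, an RNA-binding zinc finger gene (chromosome 3, 32233718 to 32264600), had 17.6, 16.0, 15.8 and 13.5 CPM in single colored libraries, against 11.6, 9.95, 11.4 and 15.7 CPM in double colored libraries. Double colored replicate 4 stood among the single colored libraries, and the log2 fold change was 0.37 ± 0.16 (edgeR adjusted p = 0.297). Trp53inp1, whose protein promotes the activating phosphorylation of p53 (chromosome 4, 11083578 to 11101526), had 6.76, 3.66, 3.23 and 4.21 CPM in single colored libraries, against 4.52, 3.09, 2.33 and 2.55 CPM in double colored libraries. The single colored library was higher in all 4 numbered pairs, as held for 14.0% of all genes, although the groups overlapped (log2 fold change 0.52 ± 0.28, edgeR adjusted p = 0.409). Without single colored replicate 1 its log2 fold change was 0.23 (edgeR adjusted p = 0.834). With scaling by library totals Zmat3 passed at 0.87 (adjusted p = 0.0262) and Trp53inp1 at 1.05 (adjusted p = 0.0296), and over all alternatives their adjusted p-values ran up to 0.624 and 0.834.

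The stress and metabolic targets had fold changes on both sides of 0. Sesn1, a sestrin that restrains growth signalling through mTORC1 (chromosome 10, 41530380 to 41628230), had 13.5, 16.1, 19.5 and 21.2 CPM in single colored libraries, against 16.6, 22.6, 21.9 and 23.7 CPM in double colored libraries. It was lower in the single colored library of all 4 pairs, as held for 13.7% of all genes. The groups of Sesn1 overlapped (log2 fold change −0.27 ± 0.17, edgeR adjusted p = 0.485). Its log2 fold change was −0.17 without single colored replicate 1, and 0.20 with scaling by library totals. Its relative Sesn2 averaged 0.814 ± 0.589 CPM in the single colored and 0.441 ± 0.232 CPM in the double colored cells (log2 fold change 0.89 ± 0.58, edgeR adjusted p = 0.507), and single colored replicate 3 alone had 1.69 CPM. Without that library its log2 fold change was 0.24. Rrm2b, the p53-induced ribonucleotide reductase subunit that supplies DNA precursors outside S phase (chromosome 15, 37853707 to 37891073), had 4.77, 6.25, 4.01 and 5.48 CPM in single colored libraries, against 7.29, 6.18, 5.10 and 8.78 CPM in double colored libraries. Its groups overlapped (log2 fold change −0.42 ± 0.21, edgeR adjusted p = 0.380, and 0.04 with scaling by library totals). Phlda3, which encodes a repressor of Akt signalling (chromosome 1, 137662696 to 137665713), had 1.36, 1.33, 1.33 and 1.63 CPM in single colored libraries, against 1.63, 0.682, 0.518 and 0.752 CPM in double colored libraries. Double colored replicate 1 stood as high as the highest single colored library and the other three lay lower (log2 fold change 0.65 ± 0.39, edgeR adjusted p = 0.473). Without double colored replicate 1 the log2 fold change of Phlda3 was 1.10 (edgeR adjusted p = 0.187).

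**Figure D3:**
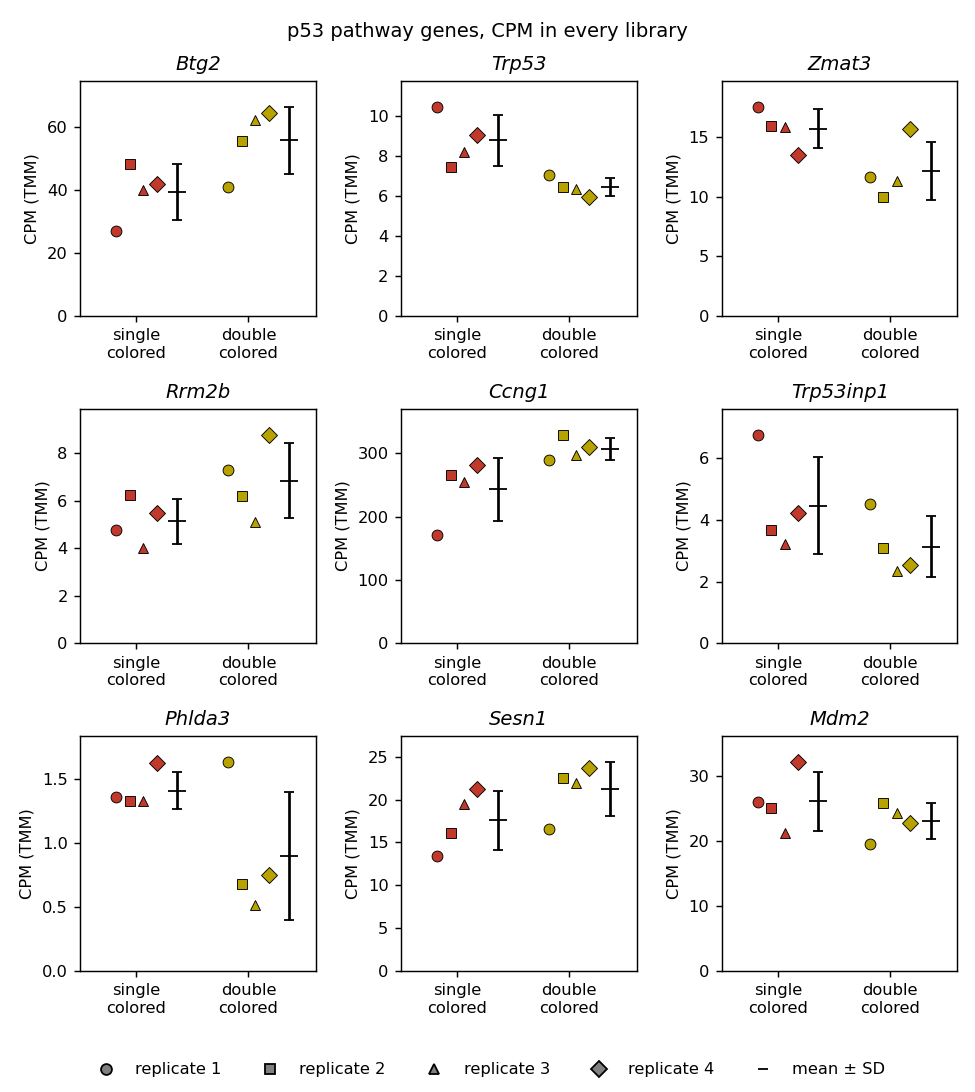
CPM in every library (vertical axes, from 0, TMM scaling) for 9 p53 pathway genes in single and double colored cells, with a marker shape for each replicate number and the mean ± SD beside the points. Trp53 lay at 7.43 to 10.4 CPM in the single colored and 5.93 to 7.03 CPM in the double colored libraries, and Ccng1 at 170 to 282 CPM in the single colored and 290 to 330 CPM in the double colored libraries.

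The cell death genes of the list were low apart from Perp, and none passed. Bax, which encodes a pore-forming protein of the mitochondrial death pathway, averaged 1.49 ± 0.324 CPM in the single colored and 1.67 ± 0.295 CPM in the double colored cells. The death receptor gene Fas averaged 2.13 ± 0.655 CPM in the single colored and 1.64 ± 0.582 CPM in the double colored cells. Tnfrsf10b, the mouse TRAIL receptor gene, had means of 2.07 ± 0.509 CPM in the single colored and 1.82 ± 0.262 CPM in the double colored cells. Single colored cells had 1.03 ± 0.305 CPM of Aen, an apoptosis-associated nuclease gene, and double colored cells 1.14 ± 0.230 CPM. Eda2r, a receptor gene of the tumour necrosis factor family, stood at 1.44 ± 0.612 CPM in single colored cells and at 1.31 ± 0.469 CPM in double colored cells. Perp, a membrane protein gene of desmosomes and apoptosis, was far more abundant, at 33.1 ± 4.92 CPM in the single colored and 37.3 ± 3.24 CPM in the double colored cells. These 6 genes had log2 fold changes between −0.17 (Perp and Bax) and 0.38 (Fas), with edgeR adjusted p-values from 0.654 (Perp) to 0.926 (Eda2r). Bbc3 and Pmaip1, which encode the death-promoting proteins Puma and Noxa, had too few reads for the filter on low counts. Bbc3 had 12, 12, 6 and 2 reads in single colored replicates 1 to 4, against 13, 3, 2 and 5 reads in double colored replicates 1 to 4. Pmaip1 had 35, 17, 7 and 7 reads in single colored libraries, against 16, 5, 6 and 4 reads in double colored libraries, with replicate 1 the highest in both groups. Tested with no filter, Bbc3 had a log2 fold change of −0.01 and Pmaip1 one of 0.57 (edgeR adjusted p = 0.996 and 0.738).

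None of the 4 damage kinases passed the test, and the intervals of Atm and Atr were narrower than those of Chek1 and Chek2. Atm, the kinase that responds to DNA double-strand breaks (ENSMUSG00000034218, chromosome 9, 53247254 to 53344845), had 8.86, 6.14, 8.90 and 7.30 CPM in single colored libraries, against 7.12, 6.45, 7.39 and 8.27 CPM in double colored libraries. The groups overlapped throughout (log2 fold change 0.10 ± 0.18, 95% interval −0.29 to 0.48, edgeR adjusted p = 0.868). Atr, the kinase of stalled replication forks (chromosome 9, 95758016 to 95852063), had 7.68, 7.89, 6.61 and 3.97 CPM in single colored libraries, against 6.32, 4.82, 6.22 and 5.56 CPM in double colored libraries. Single colored replicate 4 was the lowest of all 8 libraries and the other single colored ones the 3 highest (log2 fold change 0.19 ± 0.22, edgeR adjusted p = 0.759).

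Chek1, the checkpoint kinase downstream of Atr (chromosome 9, 36516067 to 36534650), had the highest fold change of the checkpoint and repair genes. It was measured at 1.91, 0.942, 0.677 and 0.754 CPM in single colored libraries, against 0.502, 0.682, 0.648 and 0.543 CPM in double colored libraries. Single colored replicate 1 stood well above the rest, and replicate 3 reached only the level of the highest double colored library. The single colored library was higher in all 4 pairs, as held for 14.0% of all genes. The log2 fold change was 0.86 ± 0.44 (95% interval −0.08 to 1.79, edgeR adjusted p = 0.386). Without single colored replicate 1 the log2 fold change of Chek1 was 0.40 (edgeR adjusted p = 0.841). Chek2, the kinase downstream of Atm (chromosome 5, 111269036 to 111303152), had 1.23, 1.22, 0.312 and 1.03 CPM in single colored libraries, against 1.05, 0.591, 0.389 and 0.878 CPM in double colored libraries. Both groups covered nearly the same range (log2 fold change 0.38 ± 0.49, edgeR adjusted p = 0.795). The 24 proliferation markers, chosen as genes that peak in S phase and mitosis, had a median log2 fold change of 0.50, with 22 above 0 and 0 past the threshold, and a summed level of 105 to 161 CPM in the single colored and 80.1 to 132 CPM in the double colored libraries. As for Chek1, their highest library was single colored replicate 1, which also had the highest lymphocyte and myeloid sums. Double colored replicate 1 came next in the proliferation sum, at 132 CPM, but had the lowest Chek1 level of all 8 libraries, 0.502 CPM.

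Repair genes showed no common direction. Parp1, which senses DNA strand breaks (chromosome 1, 182499086 to 182531384), had 7.57, 8.69, 7.49 and 6.47 CPM in single colored libraries, against 9.63, 8.54, 12.9 and 6.73 CPM in double colored libraries. Double colored replicate 3 was the highest and the groups overlapped (log2 fold change −0.32 ± 0.20, edgeR adjusted p = 0.487, −0.14 without that library, and 0.14 with scaling by library totals). Brca1, of homologous recombination (chromosome 11, 101350078 to 101413269), had 2.07, 1.29, 1.38 and 0.913 CPM in single colored libraries, against 2.68, 1.00, 1.47 and 1.38 CPM in double colored libraries. Replicate 1 was the highest in both groups (log2 fold change −0.20 ± 0.37, edgeR adjusted p = 0.862), and without double colored replicate 1 the log2 fold change was 0.14. Fancd2, of the Fanconi pathway that repairs crosslinks (chromosome 6, 113481676 to 113547011), had 22, 9, 5 and 9 reads in single colored replicates 1 to 4, against 13, 0, 15 and 21 reads in double colored replicates 1 to 4. The 0 reads of double colored replicate 2 allow up to 0.136 CPM by counting error alone. Its log2 fold change of −0.59 ± 0.73 (edgeR adjusted p = 0.781) turned to 0.32 with limma-voom.

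**Figure D4:**
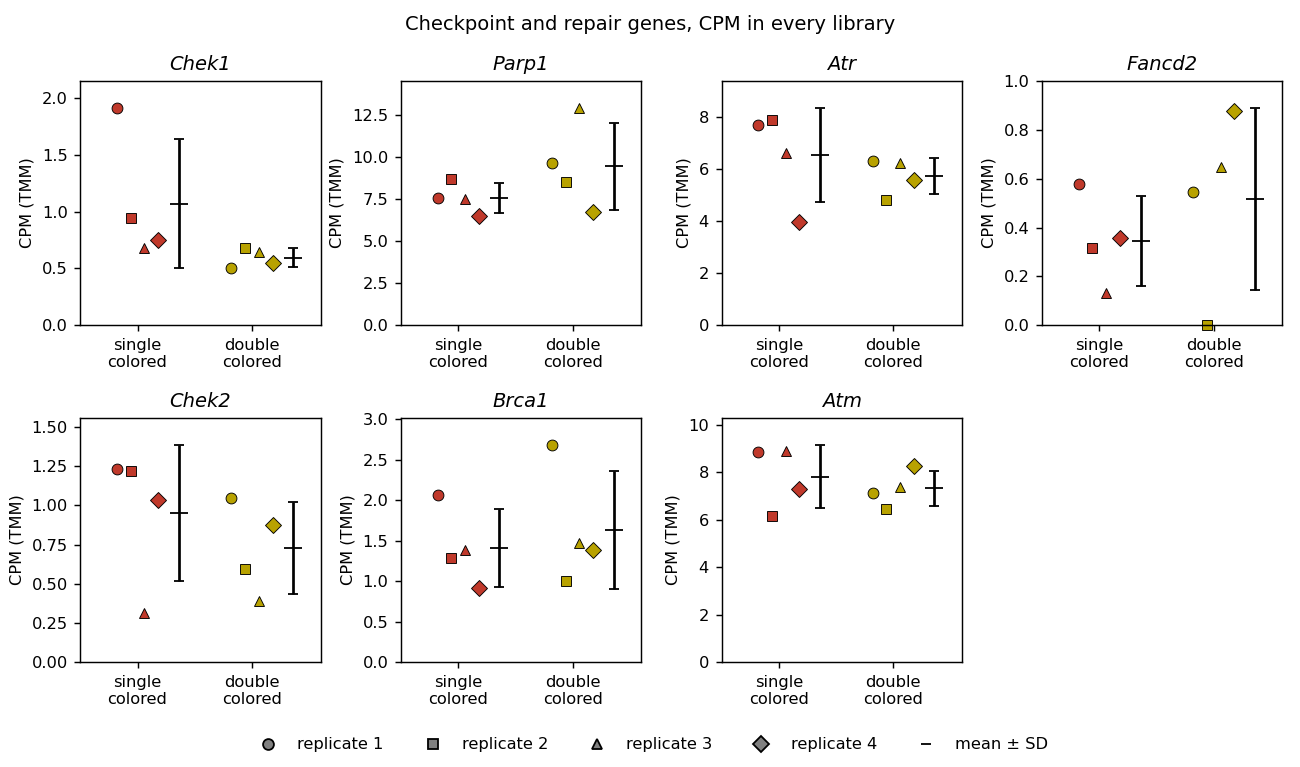
CPM in every library (vertical axes, from 0, TMM scaling) for 7 checkpoint and repair genes in single and double colored cells, with a marker shape for each replicate number and the mean ± SD beside the points. Chek1 lay at 0.677 to 1.91 CPM in the single colored and 0.502 to 0.682 CPM in the double colored libraries, and Atm at 6.14 to 8.90 CPM in the single colored and 6.45 to 8.27 CPM in the double colored libraries.

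The other repair genes had estimated log2 fold changes close to 0. Rad50 and Nbn, which act together at broken DNA ends, averaged 12.5 ± 1.84 and 3.25 ± 0.607 CPM in single colored cells and 12.4 ± 1.79 and 3.45 ± 0.400 CPM in double colored cells. Prkdc, the kinase of non-homologous end joining, averaged 7.96 ± 1.32 CPM in the single colored and 8.01 ± 0.708 CPM in the double colored cells. Xrcc1, a scaffold of single-strand break repair, averaged 1.33 ± 0.624 CPM in the single colored and 1.25 ± 0.257 CPM in the double colored cells. Brca2, also of homologous recombination, had 2.24 ± 0.933 CPM in single colored cells and 2.41 ± 0.609 CPM in double colored cells. The log2 fold changes of these 5 genes lay between −0.11 (Brca2) and 0.08 (Xrcc1), with edgeR adjusted p-values of 0.916 (Nbn) or more. The 95% intervals were narrowest for Rad50 (−0.33 to 0.37) and Prkdc (−0.39 to 0.36). They were wider for Nbn (−0.56 to 0.40), Brca2 (−0.80 to 0.59) and Xrcc1 (−0.74 to 0.89).

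The sum of the p53 pathway and the median of its genes pointed in opposite directions. Added up, the 20 genes had 337, 462, 434 and 476 CPM in single colored replicates 1 to 4, against 468, 528, 491 and 524 CPM in double colored replicates 1 to 4, while their median log2 fold change was 0.16. Ccng1 made up 50.6% to 59.3% of the sum in the single colored and 59.3% to 62.4% in the double colored libraries. Without Ccng1 the sum was 184 ± 14.1 CPM in the single colored and 196 ± 14.4 CPM in the double colored cells (SD, n = 4 each). Per length, Ccng1 was followed by Perp (17.4 ± 2.59 CPM per kb in the single colored and 19.6 ± 1.71 in the double colored cells), Btg2 (single 14.3 ± 3.25, double 20.3 ± 3.86), Plk2 (single 7.14 ± 1.20, double 6.52 ± 0.669), Sesn1 (single 5.29 ± 1.04, double 6.38 ± 0.947) and Mdm2 (single 5.16 ± 0.888, double 4.56 ± 0.536). The ranges of mean ± SD overlapped between Perp and Btg2 and between Plk2 and Sesn1 in both groups, and between Sesn1 and Mdm2 in single colored but not in double colored cells. Of 7 tested p53 pathway genes with a mean of 10 CPM or more over all libraries, 4 had negative log2 fold changes, and of 11 below that mean 8 had positive ones. Among all tested genes, 38.9% of those at 10 CPM or more and 52.2% of those below had positive log2 fold changes. With scaling by library totals Ccng1, Perp and Sesn1 had positive values and Btg2 one of −0.07, all below the median gene. The checkpoint and repair genes added up to 49.3 to 60.2 CPM in single colored libraries, against 48.0 to 58.5 CPM in double colored libraries.

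**Figure D5:**
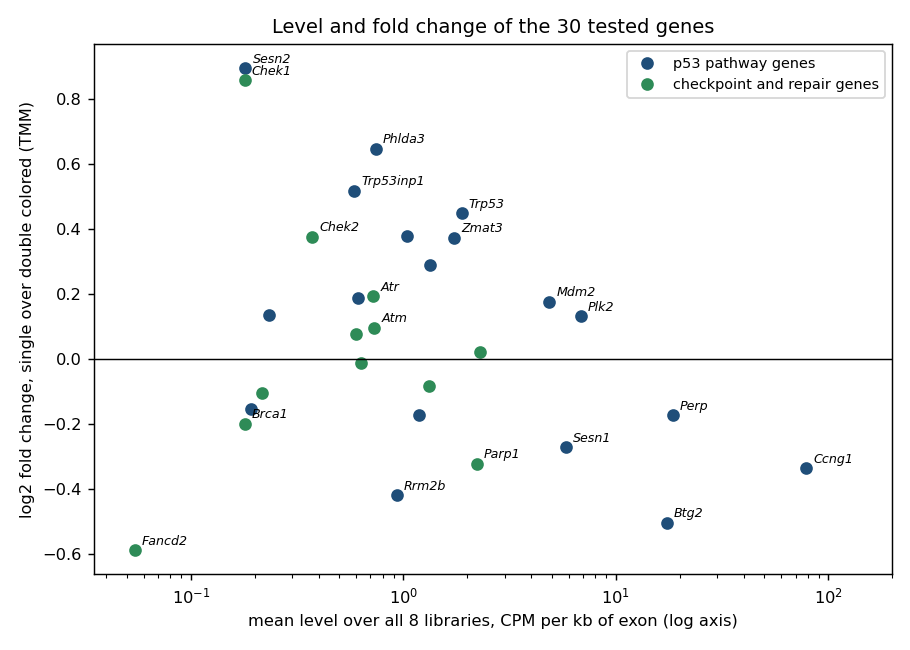
Log2 fold change of single over double colored cells (vertical axis, TMM scaling) against the mean level over all 8 libraries (horizontal log axis, CPM per kb of exon) for the 30 tested genes. Ccng1, Perp, Btg2 and Sesn1, among the most abundant genes, lie below 0. Plk2 (0.13) and Mdm2 (0.18), also among the most abundant, lie above 0. With scaling by library totals Ccng1, Perp, Btg2 and Sesn1 stand at 0.12, 0.30, −0.07 and 0.20, all below the median of 0.48 over all genes.

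Marker genes of several cell types moved with the groups, and their part in these values was not tested. Cardiomyocyte markers had a median log2 fold change of −0.43, with 11 of 12 below 0 and 0 past the threshold, beside the negative values of Ccng1, Btg2 and Sesn1. Lymphocyte markers had a median of 2.63 and myeloid markers one of 0.87, beside the positive values of Trp53 and Zmat3. Of 9 fibroblast markers 1 rose (Col1a1, a collagen of scar matrix), and the median log2 fold change of the 9 was 0.29. Above 0 were 6 of them, and 3 lay below (Dpt, Tcf21 and Dcn). The 9 summed to 647 to 1884 CPM in the single colored and 336 to 774 CPM in the double colored libraries. Of 8 endothelial markers 0 passed. The call of Col1a1 was lost without single colored replicate 1, 2 or 3 or double colored replicate 2 or 3 (edgeR adjusted p up to 0.285), where the log2 fold change was 1.37 to 1.89, against 1.76 with all libraries. It was also lost with limma-voom (adjusted p = 0.134), with the filter at 5 CPM (0.0721) and without mitochondrially encoded genes (0.0504). In such bulk samples fewer cells of a type and less RNA per cell cannot be told apart.

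Other genes of the same pathways were described from lists of further p53 targets and further repair genes. Of 33 tested among 37 other p53 targets, 1 rose and 0 fell, against 2.48% of all genes past the threshold, with a median log2 fold change of 0.31 against −0.01 for all genes. The gene that rose was Tnfrsf1b, a tumour necrosis factor receptor that leukocytes also express, at 8.26 ± 2.22 CPM in the single colored and 3.18 ± 1.72 CPM in the double colored cells (log2 fold change 1.38 ± 0.31, edgeR adjusted p = 0.0278). The call of Tnfrsf1b was lost without single colored replicate 1 or 4 or double colored replicate 1, 3 or 4 (edgeR adjusted p up to 0.0977), and with the filter at 5 CPM (0.0529). Gtse1, a p53-binding gene of G2 and S phase, had a log2 fold change of 1.72 ± 0.46, the autophagy gene Dram1 one of 1.18 ± 0.32 and the apoptosome gene Apaf1 one of 0.69 ± 0.25 (edgeR adjusted p = 0.0592, 0.0666 and 0.186). Of the 33, 5 were higher and 1 lower (Ak1, log2 fold change −0.45) at an unadjusted p under 0.05, against 9.02% and 6.10% of all genes. The list was chosen with earlier results known, so these counts are no test of it. Cdkn1a, the p21 gene through which p53 halts the cell cycle, was added after its values were seen. It averaged 19.0 ± 1.90 CPM in the single colored and 16.0 ± 2.10 CPM in the double colored cells (log2 fold change 0.25 ± 0.15, edgeR adjusted p = 0.458). Of 60 tested among 68 other checkpoint and repair genes, 0 passed, and the median was 0.08. At an unadjusted p under 0.05, 3 of the 60 were higher and 0 lower, against 9.02% and 6.10% of all genes. The 4 with the smallest p were Bard1, the partner of Brca1 (1.23 ± 0.47), the DNA ligase gene Lig1 (0.65 ± 0.28), the end-resection gene Rbbp8 (0.67 ± 0.29) and the ubiquitin ligase gene Rnf8 (−0.54 ± 0.26), with edgeR adjusted p-values of 0.217, 0.280, 0.283 and 0.337.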

How the data were processed

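Per the submitters' processing notes, the alignment used STAR 2.5.2b and mm9, and featureCounts (Subread) did the counting. The deposited values used here are whole read counts, not estimated counts, and nothing was rounded. The authors' deposited log2 fold changes, p-values and FDR values come from a test not given in the sources used here. Of the authors' 15711 genes with an FDR, 0 lie under 0.05. Gene symbols are those of GENCODE vM21 for the deposited Ensembl identifiers.

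Groups were compared with edgeR 4.0.16 in R 4.3.3 on all 8 libraries, with filterByExpr (minimum count 10), TMM scaling and the robust quasi-likelihood F-test, adjusted over 12466 genes at 0.05. CPM use the TMM-scaled totals of the tested genes, mitochondrial ones included. Alternatives used DESeq2 1.42.0, limma 3.58.1, other scalings and filters, a replicate block, and fewer libraries.

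The genes and lists were chosen with earlier results of these data known. Values in every library are given for Trp53, Mdm2, Atm, Chek1, and the 8 p53 pathway and 6 checkpoint and repair genes with the smallest p. From other lists up to 4 with the smallest p are named.

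Same-numbered libraries share an id in the labels, and their deviations from the group means correlated across genes by 0.126 to 0.257, against at most 0.108 for other numbers. The numbers were therefore taken to pair the libraries where pairs are counted. The labels do not say what the number marks, so the main test has no block, and its p-values leave the pairing out. The fit with the block called 939 genes in all, and of the genes described here only Btg2.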

Additional observations from a re-analysis of the deposited data

Results flagged for a closer look

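In 3 of 60 groups of 4 libraries, 1 library stood apart from the other three by Dixon's test at the 95% level, and chance flags about 1 in 20 groups. Sesn2 had 1.69 CPM in single colored replicate 3, against 0.437 to 0.603 CPM in the other single colored libraries. Phlda3 had 1.63 CPM in single colored replicate 4, against 1.33 to 1.36 CPM in the others. Xrcc1 had 1.64 CPM in double colored replicate 2, against 1.08 to 1.17 CPM in the other double colored libraries.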

How the results depend on the processing

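Of 313 values of the 16 genes described in every library under 20 alternatives, 302 kept their direction and side of the threshold. With scaling by library totals, where 1390 genes differed and the median gene stood at 0.48, 3 of the 32 genes passed, the list medians were 0.65 and 0.50, and Rrm2b (0.037), Ccng1 (0.12), Sesn1 (0.20), Parp1 (0.14) and Brca1 (0.33) turned positive. The count over all genes was 556 with DESeq2, 805 with no filter, 97 with the filter at 5 CPM and 939 with the replicate block, which called 1 of the 32 genes, Btg2, and changed no other call among them. At 5 CPM 14 of the 32 genes were tested, and the median of the 9 p53 pathway genes among them was −0.13. Brca1 ran from −0.45 to 0.14 when 1 library was left out, with 0.14 without double colored replicate 1, and Fancd2 at 0.32 with limma-voom; the causes were not tested. Leaving out libraries gave 94 to 304 called genes, 0 of the 32 in each case, and medians of 0.07 to 0.18 (p53 pathway) and −0.09 to 0.07 (checkpoint and repair). The count over all genes moved by more than 1.5 times without single colored replicate 1 (142), double colored replicate 2 (191) or 4 (134), and without both libraries numbered 1 (146), 2 (138), 3 (200) or 4 (94); leaving out a number was chosen after seeing the data. Few reads limit Bbc3, Pmaip1, Fancd2 and Sesn2 most.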
